A study of Mus musculus with 4 samples.

Results

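Glutathione synthesis and cystine supply were followed through 8 genes in RNA from single cortical nuclei of GCLC-KO mice. The genes were taken by symbol, and each of Gclc, Gclm, Gss, Gsr, Slc7a11, Ggt7, Slc1a1 and Oplah matched 1 of the 32285 genes counted. Of the 4 libraries, 2 came from mice aged 3 months (3M-1 and 3M-2) and 2 from mice aged 6 months (6M-1 and 6M-2), with 1 mouse in each. All 4 mice carried the knockout, made by crossing GCLC floxed mice (C57BL/6NTac-Gclctm1a(EUCOMM)Wtsi/WtsiCnbc) with CaMKII-Cre mice, and no wild-type or Cre-negative library was analysed here, so the comparisons were between the ages and between cell types of the same mice. CaMKII-Cre acts mainly in excitatory neurons of the forebrain, so the other cell types are not its intended target, and no treatment was given. Cortical regions rich in rod-shaped microglia were dissected, and DAPI-positive single nuclei were sorted and captured with a kit that counts the 3′ ends of transcripts. The sex of the mice was not given in the sources used here.

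Glutathione is made from glutamate, cysteine and glycine. Glutamate-cysteine ligase, which joins the catalytic subunit encoded by Gclc with the modifier subunit encoded by Gclm, links the first pair, and glutathione synthetase (Gss) adds glycine. Glutathione reductase (Gsr) regenerates the reduced form with NADPH. Cysteine is usually limiting, and it reaches cells as cystine through the cystine-glutamate exchanger xCT (Slc7a11, which pairs with the heavy chain Slc3a2) or as cysteine through the glutamate transporter EAAC1 (Slc1a1), which is best known in neurons. Oplah encodes 5-oxoprolinase, which returns glutamate in the gamma-glutamyl cycle, and Ggt7 belongs to the gamma-glutamyltransferase family. In the brain, astrocytes are known as exporters of glutathione whose breakdown products supply neurons.

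Promoter sequence was looked at for 2 members that were highest in astrocytes, because both are textbook targets of stress-responsive transcription factors. The 250 bases before the annotated start are given 5′ to 3′ on the gene's own strand, from RefSeq on GRCm38.p6. Capitals mark TGATGCAAA or its reverse complement, the letters of an amino acid response element bound by ATF4, and TGACNNNGC or its reverse complement, the letters of an antioxidant response element bound by NRF2. The TGATGCAAA letters were chosen after the Slc7a11 sequence had been read. Slc7a11 lies on the minus strand (chr3:50443614-50443863) and Gclm on the plus strand (chr3:122245307-122245556).
Slc7a11: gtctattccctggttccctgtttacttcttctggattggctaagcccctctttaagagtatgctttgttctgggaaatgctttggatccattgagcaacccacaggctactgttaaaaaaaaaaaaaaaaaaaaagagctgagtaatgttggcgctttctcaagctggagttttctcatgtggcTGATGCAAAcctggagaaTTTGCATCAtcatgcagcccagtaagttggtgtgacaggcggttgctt
Gclm: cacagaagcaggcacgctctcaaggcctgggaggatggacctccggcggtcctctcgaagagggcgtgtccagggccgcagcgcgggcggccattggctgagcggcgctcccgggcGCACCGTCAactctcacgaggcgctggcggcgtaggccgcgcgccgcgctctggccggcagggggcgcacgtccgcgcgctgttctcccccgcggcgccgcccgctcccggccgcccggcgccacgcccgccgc

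The Slc7a11 window held TGATGCAAA on both strands, beginning 66 and 48 bases before the start, and no TGACNNNGC. Only these exact patterns were searched, so other spellings of either element were not looked for. The Gclm window held TGACNNNGC once, on the reverse strand, beginning 134 bases before the start. Among 32851 RefSeq windows of the same length, 0.225% held TGATGCAAA on either strand and 10.2% held TGACNNNGC. Not every chromosome was searched. The 2 windows that held TGATGCAAA more than once include that of Slc7a11. Because those letters were chosen after that sequence had been read, their rarity describes the windows only. The windows of Gss, Ggt7 and Slc1a1 held neither, and Gclc, Gsr and Oplah were not matched. These matches describe letters and not binding.

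Nuclei were assigned to a cell type by counting which markers each one held. A nucleus needed at least 3 of 10 markers of a class and at least 2 times as many as of any other of 13 classes. Of 30784 barcodes, 30515 passed the study's limits of 7000 detected genes and 1% mitochondrial UMIs (unique molecular identifiers, 1 for each captured transcript). The 4 libraries held 59262228 to 65894316 UMIs after that filter, with medians of 5994 to 8140 per nucleus, and any pair of libraries shared 12 to 19 barcodes. The 6 classes below were large enough to test, with 9826 excitatory neurons, 2961 interneurons, 4470 oligodendrocytes, 545 oligodendrocyte precursor cells (OPCs), 215 astrocytes and 2129 microglia. Another 10089 nuclei met no class. All 10 markers of each class were detected in that class in every library. The summed level of the astrocyte markers in astrocytes was 14181 to 15840 CPM, that is, UMIs scaled so that each class of each mouse sums to 1e+06. The highest of the other 12 lists there was that of striatal-type spiny neurons in 3M-1, 3M-2 and 6M-2, at 1061, 2238 and 691 CPM. In 6M-1 it was that of interneurons, at 888 CPM, and the striatal-type list was at 408 CPM. OPCs held interneuron markers at 4960 to 6136 CPM beside 13511 to 18785 CPM of their own, and excitatory neurons held striatal-type markers up to 1838 CPM and OPC markers up to 1553 CPM beside 2853 to 3290 CPM of their own. The part of such RNA in the results was not tested. The 3-month libraries differed in depth, with a median of 11070.5 UMIs per excitatory nucleus in 3M-1 and 7592.5 in 3M-2.

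For each mouse the UMIs of a class were added up, and all genes were tested with the quasi-likelihood test of edgeR, with Benjamini-Hochberg adjustment. Differences are given on the log2 scale with a standard error (SE), and a gene was called at an adjusted p under 0.05. The SE was derived from the test, as the size of the difference over the root of its F statistic. Each class was set against the mean of the other 5 with the mouse as a block, and all 8 members passed the filter on low counts in that fit. Of 48 member values, 31 were called. The call is common among all genes here: 65.1% of genes were called for excitatory neurons, where 7 members were called, and 58.9% for interneurons, where 5 were. In oligodendrocytes 6 members were called beside 58.2% of genes, in OPCs 3 beside 28.2%, in astrocytes 4 beside 31.5% and in microglia 6 beside 63.2%. These shares give the members no more than the values below, which describe where each was high. Between single pairs of classes, excitatory neurons had 2 members called against interneurons (48.5% of genes called), 7 against oligodendrocytes (73.9%), 5 against OPCs (47.6%), 6 against astrocytes (44.6%) and 5 against microglia (74.1%). Interneurons had 7 called against oligodendrocytes (69.3%) and 5 each against OPCs (40.7%), astrocytes (41%) and microglia (72%). Oligodendrocytes had 4 called against OPCs (45.3%), 4 against astrocytes (33.6%) and 7 against microglia (54.6%). OPCs had 5 called against astrocytes (26.1%) and 3 against microglia (53.7%), and astrocytes 7 against microglia (40%). Scaling by library size alone shifted the median of all genes to -0.29 in excitatory neurons and 0.28 in microglia, from 0.01 and -0.04, so small differences in these classes depend on the scaling.

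**Figure D1:**
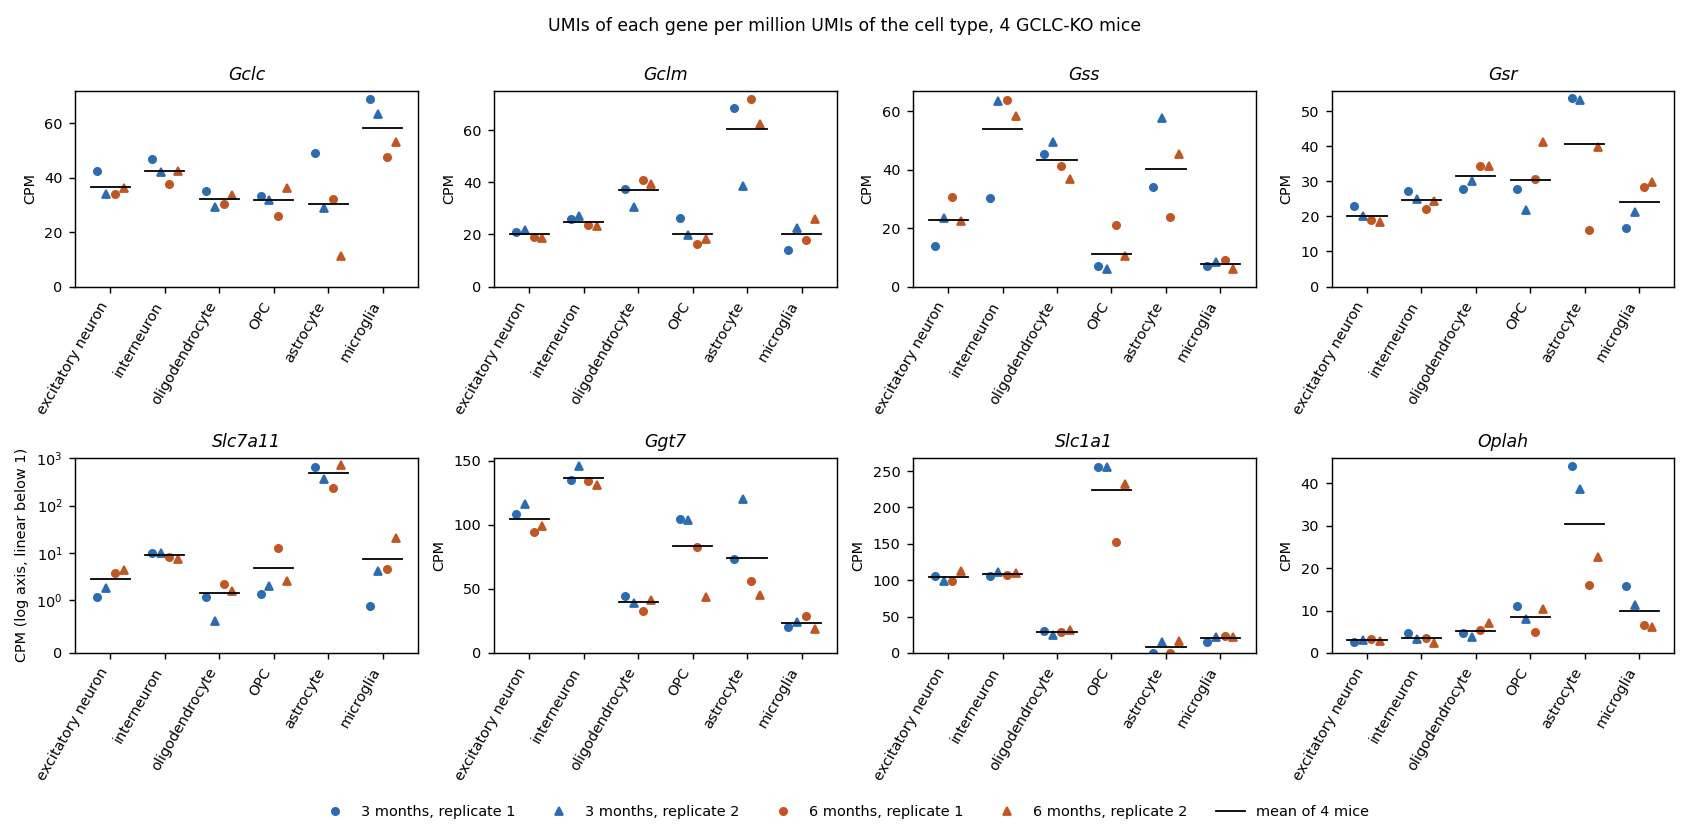
CPM of each gene (y axis) in 6 cell types (x axis), with a point for each of the 4 mice and a line at their mean. Slc7a11, on a log axis, was 232 to 714 CPM in astrocytes and under 21 CPM in every other class, and Slc1a1 was highest in OPCs.

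Slc7a11 was by far the most cell type-restricted member. In astrocytes it was at 645 and 367 CPM at 3 months (3M-1, then 3M-2, the order used throughout) and at 232 and 714 CPM at 6 months (6M-1, then 6M-2). These values rested on 132, 76, 29 and 126 UMIs from 49, 81, 37 and 48 nuclei, and 41 of the UMIs in 3M-1 came from 1 nucleus. The ages overlapped. Astrocytes exceeded the mean of the other classes by 6.73 ± 0.29 (SE, adjusted p = 4.75e-18 in edgeR). A UMI of Slc7a11 was found in 63.3%, 43.2%, 45.9% and 70.8% of astrocyte nuclei, against 0.348%, 0.118%, 0.519% and 0.329% of oligodendrocyte nuclei. Astrocyte nuclei held a median of 2257 to 4069 UMIs and oligodendrocyte nuclei 1640 to 2814. Nuclei with at least 1000 UMIs were also thinned to 1000, and shallower nuclei were left out. The astrocyte share was then 18.9% to 41.7% and the oligodendrocyte share 0% to 0.199%.

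Interneurons held the next most regular signal of Slc7a11, at 10.0, 9.88, 8.41 and 7.45 CPM. Excitatory neurons lay below interneurons by 1.54 ± 0.32 (adjusted p = 0.000168 in edgeR) and below the mean of the other classes by 1.86 ± 0.38 (adjusted p = 7.56e-05 in edgeR). Oligodendrocytes were lowest, at 0.612 to 2.19 CPM. In OPCs 8 of the 11 UMIs came from 1 nucleus of 6M-1. In microglia there were 1, 3, 7 and 27 UMIs, the last from 12 nuclei of 6M-2 of which 1 held 9. No difference in Slc7a11 was called among microglia, OPCs and excitatory neurons (differences of 0.39 to 0.98 in size, SE 0.54 to 0.93).

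Oplah and Gclm were also highest in astrocytes. Oplah was at 44.0, 38.6, 16.0 and 22.7 CPM there, from 9, 8, 2 and 4 UMIs, and exceeded the mean of the other classes by 2.43 ± 0.40 (adjusted p = 1.48e-05 in edgeR). Both neuron classes lay below, by 1.24 ± 0.19 for excitatory neurons (2.60 to 3.25 CPM) and 1.20 ± 0.22 for interneurons (2.30 to 4.70 CPM). Microglia, OPCs and oligodendrocytes lay between, all called above both neuron classes, and no difference was called among these 3 (SE 0.32 to 0.43).

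Gclm, the modifier subunit, was at 68.4, 38.6, 72.0 and 62.3 CPM in astrocytes, from 14, 8, 9 and 11 UMIs, and was higher there than the mean of the other classes by 1.17 ± 0.25 (adjusted p = 0.000383 in edgeR). Oligodendrocytes followed at 37.3, 30.6, 40.8 and 39.2 CPM, higher by 0.67 ± 0.11, and their difference from astrocytes was -0.41 ± 0.24 (adjusted p = 0.228 in edgeR). Microglia were lower by 0.88 ± 0.16, with 14.1 to 25.9 CPM. OPCs and excitatory neurons were also called lower, by 0.58 ± 0.21 and 0.25 ± 0.10, and leaving out 1 mouse lost each call for 3 of the 4 mice (differences of -0.16 to -0.31 in excitatory neurons and -0.48 to -0.80 in OPCs).

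Gclc, the knockout target, gave UMIs in every class and library. In excitatory neurons, where Cre is expected, it was at 42.6 and 34.1 CPM at 3 months and at 34.0 and 36.1 CPM at 6 months. The other values were 37.8 to 47.0 CPM in interneurons, 29.4 to 34.9 CPM in oligodendrocytes, 25.9 to 36.1 CPM in OPCs and 11.3 to 48.9 CPM in astrocytes, the last from 22 UMIs in all. The excitatory neurons therefore overlapped with interneurons, oligodendrocytes and OPCs. This checks nothing about the deletion, because the 3′ reads of a gene need not come from the floxed part and no mouse without Cre was at hand.

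Microglia had the most Gclc, at 68.9, 63.4, 47.5 and 53.3 CPM, all above the values in excitatory neurons, although the fitted difference between these classes was 0.13 ± 0.11 and was not called (adjusted p = 0.273 in edgeR). The difference from the mean of the other classes was 0.42 ± 0.11 (adjusted p = 0.00138 in edgeR), and from oligodendrocytes alone 0.44 ± 0.12 in the same direction (adjusted p = 0.00256 in edgeR). Excitatory neurons were called higher than the mean of the others by 0.27 ± 0.08 with the usual scaling, but lay at -0.036 with scaling by library size alone. Interneurons were higher by 0.28 ± 0.09, and excitatory neurons differed from interneurons by -0.01 ± 0.08 (adjusted p = 0.919 in edgeR). In mean CPM Gclc and Gclm did not share their order. Microglia had the most Gclc (58.3) and the least Gclm (20.1), the latter level with excitatory neurons (20.2) and OPCs (20.2). In the fit microglia were lowest of the 6 in Gclm, while their lead in Gclc over excitatory neurons was not called.

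**Figure D2:**
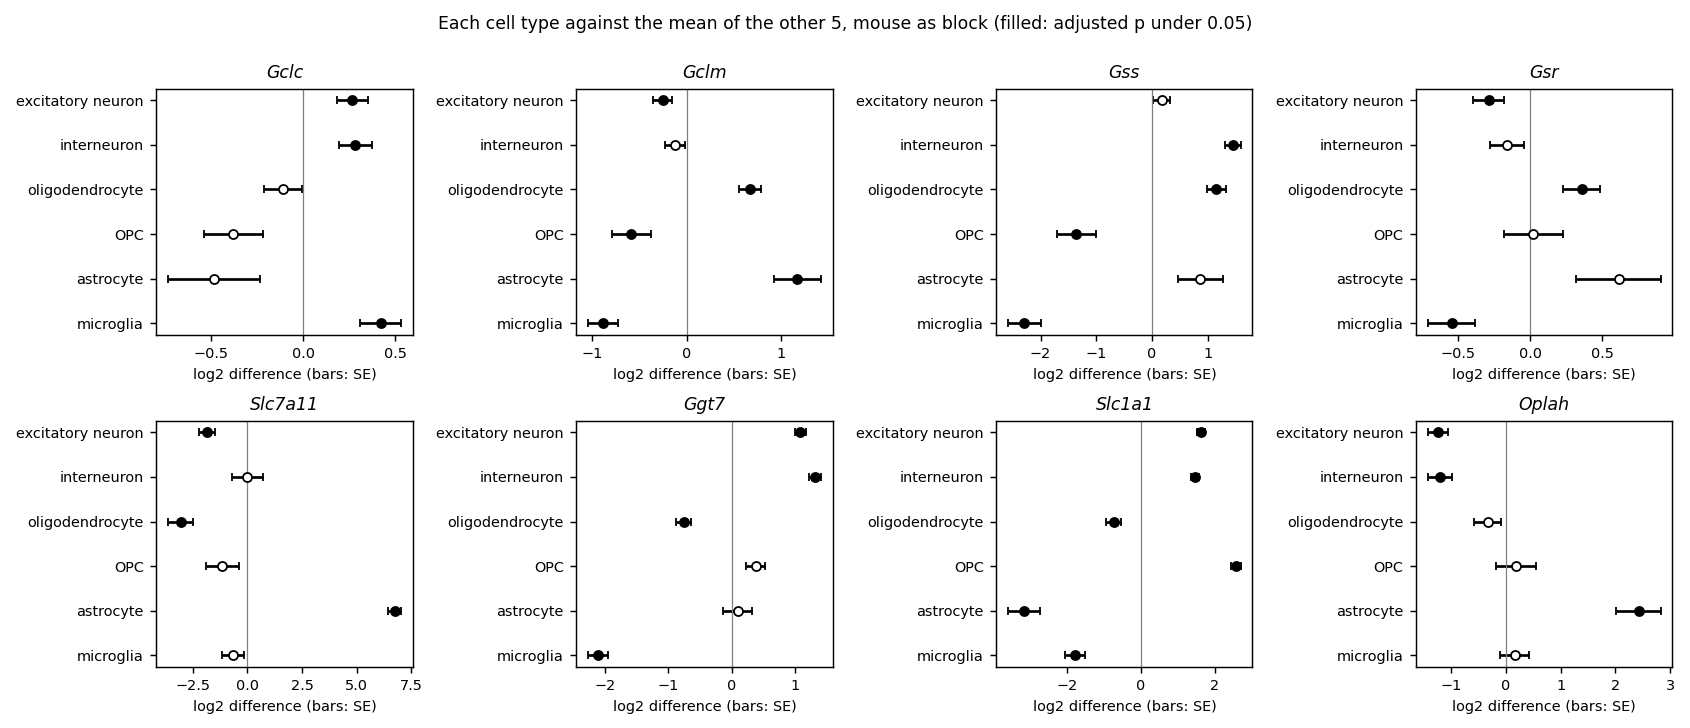
Log2 difference of each gene (x axis) in each of 6 classes (y axis) from the mean of the other 5 in the edgeR fit, with bars for 1 SE and filled points for adjusted p under 0.05. Slc7a11, Oplah and Gclm reached their highest value in astrocytes (6.73, 2.43 and 1.17), and Gss and Ggt7 in interneurons (1.45 and 1.31).

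Gss divided the classes in another way. Among the classes called, interneurons and oligodendrocytes were high and microglia and OPCs low. Interneurons were at 30.5, 63.6, 64.1 and 58.3 CPM, with 3M-1 lowest, and were higher than the mean of the other classes by 1.45 ± 0.15 (adjusted p = 6.72e-10 in edgeR). Oligodendrocytes were at 36.9 to 49.5 CPM and higher by 1.16 ± 0.17. Microglia were at 6.09 to 9.23 CPM and lower by 2.29 ± 0.30, and OPCs at 5.98 to 21.1 CPM, from 25 UMIs in all, were lower by 1.36 ± 0.36.

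The position of Gss limits these values. On mouse chromosome 2 (GENCODE M21, GRCm38) Gss occupies 155563181 to 155592810 on the minus strand, and its downstream end lies inside Acss2 on the plus strand, an overlap of 22544 bases. Acss2, an acetyl-CoA synthetase gene, overlaps Ggt7 at its other end by 290 bases, and the antisense RNAs Gssos1 and Gssos2 also lie within Gss. The kit keeps strand, but how the counting used it was not given in the sources used here. Acss2 was among the 3 genes most like Gss over the 24 sums of class and mouse (Pearson's r = 0.85, prior count 2, 14490 genes), after Apc (0.877) and Kif21a (0.858). The points share libraries and cell types, so these values describe similarity only.

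Gsr, the reductase, ranged from 18.3 to 22.8 CPM in excitatory neurons, 22.1 to 27.2 CPM in interneurons and 27.9 to 34.3 CPM in oligodendrocytes. OPCs were at 21.9 to 41.3 CPM, microglia at 16.8 to 29.7 CPM and astrocytes at 16.0 to 53.8 CPM, the last from 31 UMIs in all. Oligodendrocytes were called higher by 0.36 ± 0.13 (adjusted p = 0.0173 in edgeR), microglia lower by 0.54 ± 0.16 (0.0049) and excitatory neurons lower by 0.29 ± 0.11 (0.0207). The microglial value was -0.23 with scaling by library size alone (adjusted p = 0.237 in edgeR).

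Slc1a1, the cysteine and glutamate transporter, was high in OPCs and neurons and low in astrocytes, where Slc7a11 was highest. OPCs led at 256, 255, 152 and 232 CPM, above every value of another class, and exceeded the mean of the others by 2.58 ± 0.13 (adjusted p = 3.05e-16 in edgeR). Excitatory neurons (99.0 to 112 CPM) and interneurons (106 to 111 CPM) came next, higher by 1.62 ± 0.11 and 1.47 ± 0.12, and did not differ from each other (0.13 ± 0.10, adjusted p = 0.29 in edgeR). Oligodendrocytes at 25.1 to 31.5 CPM and microglia at 15.0 to 23.1 CPM were lower. In astrocytes 3M-1 and 6M-1 held no UMI of Slc1a1, which allows up to 14.7 and 24 CPM for a count of 0 (3 UMIs, counting error only), and 3M-2 and 6M-2 held 3 each. The astrocyte difference was -3.16 ± 0.43 (adjusted p = 4.72e-07 in edgeR). OPCs exceeded interneurons alone by 0.92 ± 0.12 (adjusted p = 2.34e-07 in edgeR). Interneuron markers reached 6136 CPM and astrocyte markers 4182 CPM in OPCs, and the part of RNA from other classes in the Slc1a1 values was not tested.

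Ggt7 was called higher in both neuron classes. Interneurons were at 131 to 146 CPM and excitatory neurons at 94.7 to 117 CPM, higher than the mean of the others by 1.31 ± 0.09 and 1.08 ± 0.09 (adjusted p = 1.81e-13 and 5.29e-12 in edgeR). Microglia were lower by 2.11 ± 0.16 at 19.0 to 29.0 CPM, and oligodendrocytes by 0.76 ± 0.12 at 32.9 to 44.4 CPM. OPCs, from 43.9 CPM in 6M-2 to 104 CPM in both 3-month mice, and astrocytes, at 73.3, 121, 56.0 and 45.3 CPM, overlapped with excitatory neurons, and neither was called.

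Over the 24 sums, the 3 genes whose log2 CPM ran closest to each member were Wdfy1, Ankrd13c and Mettl2 for Gclc (Pearson's r = 0.881 to 0.904) and Abhd14b, Gm30606 and Elovl5 for Gclm (0.886 to 0.902). Gsr ran closest to Hsd17b7, Paqr4 and Crem (0.817 to 0.838), and Slc7a11 to Msi2, Gm28411 and Gm36908 (0.928 to 0.931). For Ggt7 they were Setbp1, Mllt3 and Dab2ip (0.912 to 0.94), for Slc1a1 Gdap1l1, Thsd7b and Gm16894 (0.959 to 0.964) and for Oplah Zhx2, Asb8 and Crot (0.882 to 0.901). No member was among the closest 3 of another.

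**Figure D3:**
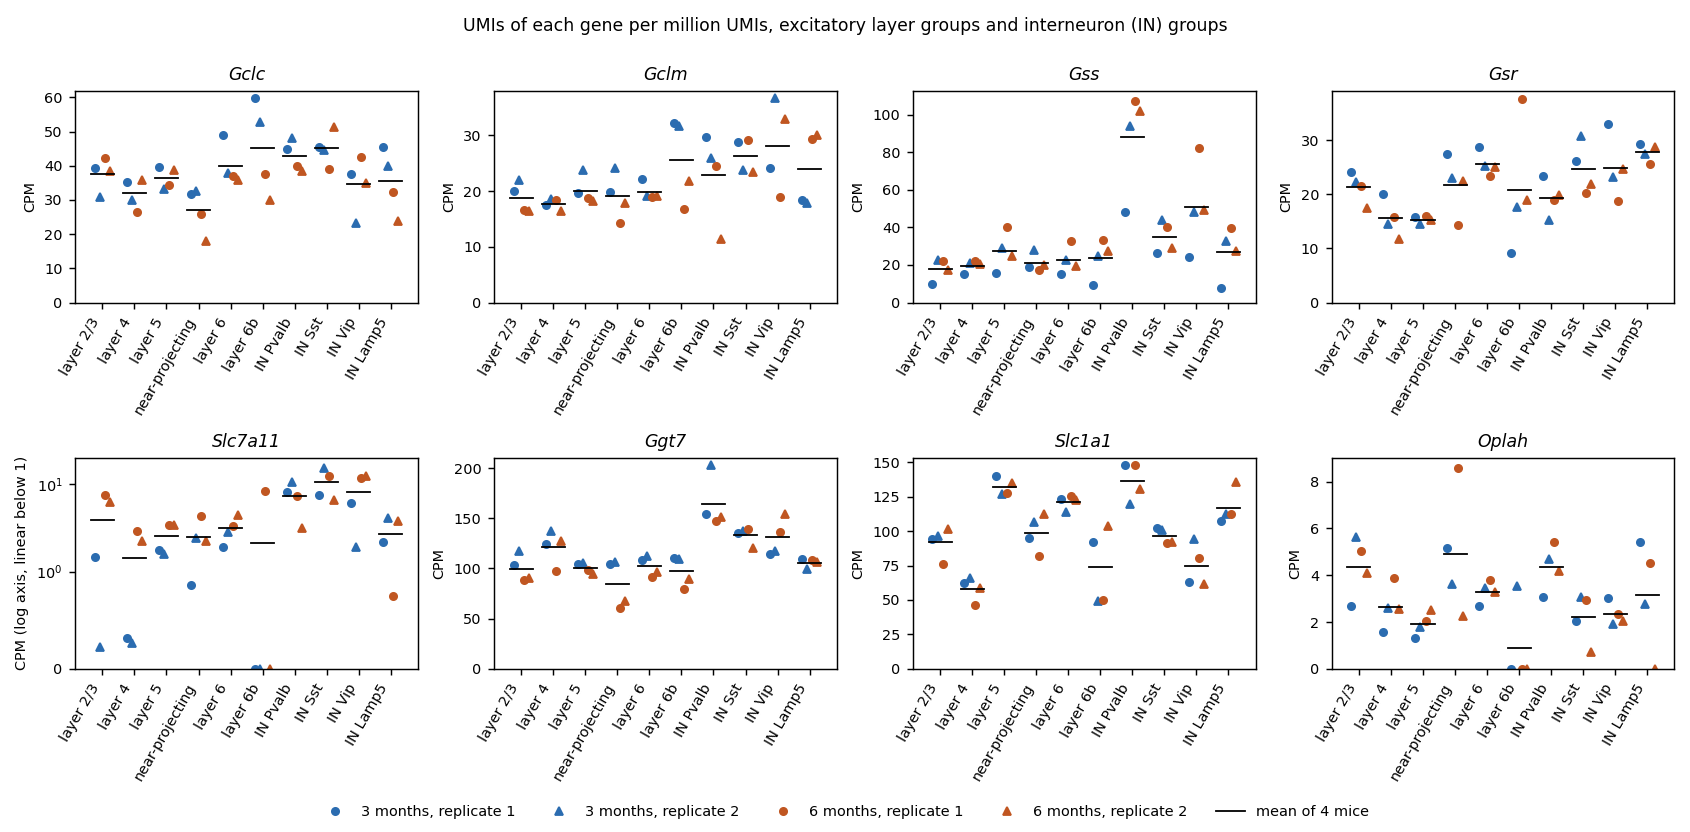
CPM of each gene (y axis) in 6 excitatory layer groups and 4 interneuron groups (IN, x axis), with a point for each mouse and a line at the mean of 4 mice. Gss was highest in Pvalb interneurons, and Slc1a1 was lowest in layer 4 among the excitatory groups with more than 26 nuclei per mouse.

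Within the neurons, members differed between layers and between interneuron groups. Layer groups were gated among excitatory neurons with 2 or more layer markers and compared in the same way, each against the mean of the other 5. Slc1a1 was at 140, 127, 127 and 135 CPM in layer 5, higher by 0.65 ± 0.07 (adjusted p = 1.14e-07 in edgeR), and at 114 to 126 CPM in layer 6, higher by 0.44 ± 0.07. Layer 4 was at 62.1, 65.7, 46.2 and 59.0 CPM, lower by 0.72 ± 0.09 (adjusted p = 1.39e-07 in edgeR), below every value of layers 2/3, 5 and 6. Of the 8 members, 3 were called in layer 5 beside 14.4% of genes, 3 in layer 4 beside 32% and 2 in layer 6 beside 19.3%.

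Ggt7 was higher in layer 4 by 0.40 ± 0.07 (adjusted p = 1.85e-05 in edgeR). Gsr was higher in layer 6 by 0.41 ± 0.10, at 23.4 to 28.7 CPM, and lower in layer 5 by 0.40 ± 0.12, at 14.4 to 16.0 CPM, without overlap between these layers. It was also lower in layer 4, by 0.34 ± 0.13, and Gss was higher in layer 5 by 0.39 ± 0.11. Layer 2/3 had 1 member called, Oplah, higher by 0.92 ± 0.30 from 8 to 25 UMIs per mouse, beside 25.8% of genes. Near-projecting neurons had Gclc and Ggt7 called lower, by 0.52 ± 0.16 and 0.37 ± 0.10, beside 12% of genes, and Gclc there rested on 8 to 37 UMIs per mouse. In layer 6b (14 to 26 nuclei per mouse) no member was called with edgeR, with 1 member at an unadjusted p under 0.05, beside 12.8% of genes. The 11 layer calls fell to between 5 and 8 in number when 1 mouse was left out, and DESeq2 also gave 11. The shares of all genes called under those settings are not given here, so these counts describe the settings only.

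Among interneurons, those of the Pvalb group held the most Gss, at 48.0, 94.0, 108 and 102 CPM, higher than the mean of the other 3 groups by 1.27 ± 0.14 (adjusted p = 3.00e-09 in edgeR). Lamp5 interneurons were at 7.59, 33.0, 39.9 and 27.6 CPM and lower by 1.03 ± 0.17. In each mouse Pvalb lay above Lamp5, and 3M-1 was lowest of the 4 mice in both. The Pvalb group was also higher in Slc1a1 by 0.54 ± 0.10 and in Ggt7 by 0.40 ± 0.09. In all, 3 of 7 members tested were called for Pvalb beside 35.8% of genes, 3 for Lamp5 beside 24.7%, 2 for Sst beside 18.6% and 1 for Vip beside 25%. Slc7a11 was lower in Lamp5 interneurons by 1.80 ± 0.49 (adjusted p = 0.00531 in edgeR), with 1 to 3 UMIs per mouse, and higher in Sst interneurons by 0.99 ± 0.33 (adjusted p = 0.0314 in edgeR), with 9 to 25.

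Microglia that held at least 2 of 11 markers of disease-associated microglia (DAM) were compared with the other microglia of the same mouse. There were 60 to 212 DAM-gated nuclei per mouse. All had first passed the microglia gate, whose markers include P2ry12, Cx3cr1 and Siglech. The paper states that P2ry12 decreases in DAM, so nuclei far into that state may have been missed, which was not tested. None of the 5 members that could be tested (Gclc, Gclm, Gsr, Ggt7 and Slc1a1) was called with edgeR, none had an unadjusted p under 0.05, and DESeq2 called none, beside 6.4% of genes called. Gclc was at 63.1, 105, 43.7 and 64.9 CPM in DAM-gated and at 70.9, 52.1, 49.5 and 48.5 CPM in other microglia, a difference of 0.20 ± 0.23. Slc7a11 had too few UMIs for the fit: 0, 2, 3 and 22 in DAM-gated nuclei and 1, 1, 4 and 5 in the others. In 6M-2 the 22 UMIs came from 8 of 149 nuclei, of which 1 held 9. Without the filter on low counts the difference was 2.26 and was called (adjusted p = 0.00612 in edgeR), with most of its UMIs in 6M-2.

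Between the ages no member was called in any class. Of 39 member values tested in the 6 classes, 2 had an unadjusted p under 0.05, the lowest adjusted p was 0.671 in edgeR, and DESeq2 called 0. Few genes of any kind were called: 0% of 18037 genes in excitatory neurons (989 at an unadjusted p under 0.05, 33 with DESeq2, 8 with the batch number as a replicate block), 0% in interneurons (654, 2 and 0) and 0% in OPCs (399, 0 and 1). In oligodendrocytes 0.0236% were called (3 genes, 18 with the block), in astrocytes 0.277% (11, and 0 with the block) and in microglia 0.0171% (2, and 5 with the block). With 2 mice per age the fits had little power, so these values do not show that the members stayed level. In the layer and interneuron groups none of 64 member values was called with edgeR or DESeq2, 4 had an unadjusted p under 0.05, and 0% of genes were called in every group but Vip interneurons (0.0136%). Leaving out 1 mouse moved the counts of the 6 classes to between 0 and 1905, and each lone mouse was then assumed to vary like the pair at the other age.

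Slc7a11 in excitatory neurons had the lowest unadjusted p of the 39 values. It was at 1.18 and 1.81 CPM at 3 months (31 and 52 UMIs) and at 3.81 and 4.32 CPM at 6 months (94 and 111 UMIs). The ages did not overlap, and the difference was 1.43 ± 0.31 with an unadjusted p of 0.00173 and an adjusted p of 0.693 in edgeR. Without 3M-1 the difference was 1.20, without 3M-2 it was 1.72, and without 6M-1 or 6M-2 it was 1.52 or 1.30. Each of these fits left a lone mouse at 1 age, so only the sizes are given. In layer 2/3 the values were 1.46, 0.226, 7.54 and 6.15 CPM, from 6, 1, 15 and 12 UMIs, a difference of 3.00 ± 0.72 (adjusted p = 0.469 in edgeR, and 0.00624 with no filter on low counts). Both 6-month mice lay above both 3-month mice in layers 4, 5 and 6, while the ages overlapped in near-projecting neurons. Layer 6b had 2 UMIs in all. The layers are parts of the same excitatory nuclei, so they add no separate support. How often all genes separated the ages in this way was not counted, for this or any other member.

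The share of excitatory nuclei with a UMI of Slc7a11 was 1.24% (exact binomial 95% interval 0.822 to 1.81) and 1.16% (0.822 to 1.59) at 3 months and 3.40% (2.68 to 4.24) and 3.55% (2.81 to 4.42) at 6 months. Median depth was 11070.5, 7592.5, 9901 and 10692 UMIs, and the part of depth in these shares was not tested beyond thinning. Among nuclei with at least 1000 UMIs, thinned to 1000, the shares were 0.139%, 0.0917%, 0.544% and 0.601%, from 3, 3, 12 and 13 nuclei. The first pair lay within the 0% to 0.199% seen in thinned oligodendrocytes. The summed level of the 10 astrocyte markers in excitatory neurons was 332, 260, 264 and 296 CPM, and the part of astrocyte RNA in the Slc7a11 values was not tested. Slc7a11 in nuclei of no class was 4.02 and 3.52 CPM at 3 months and 8.59 and 8.13 CPM at 6 months. In interneurons as a whole both 6-month mice lay below both 3-month mice. That difference was -0.31 ± 0.25 and was not called (adjusted p = 0.953 in edgeR). In Pvalb interneurons mean Slc7a11 was 9.37 CPM (standard deviation 1.70) at 3 months and 5.18 CPM (2.90) at 6 months, from 28 UMIs in all. Sst interneurons had means of 11.5 (standard deviation 5.54) then 9.46 CPM (4.07). Lamp5 interneurons had 3.15 (1.38) then 2.26 CPM (2.13), from 9 UMIs in all. The ages overlapped in Sst and in Lamp5 interneurons. Vip interneurons, with too few UMIs for the fit, were at 6.02, 1.93, 11.8 and 12.4 CPM (4, 1, 5 and 6 UMIs). Oligodendrocytes, also untested, were at 1.18, 0.612, 2.19 and 1.60 CPM (3, 1, 8 and 5 UMIs). Vip interneurons and oligodendrocytes both had the 6-month mice above the 3-month mice. The test of whether the difference between the ages depended on cell type called no member in edgeR (0.4% of 14490 genes were called), and gave Slc7a11 an adjusted p of 0.234, or 0.0372 with the stricter gate.

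**Figure D4:**
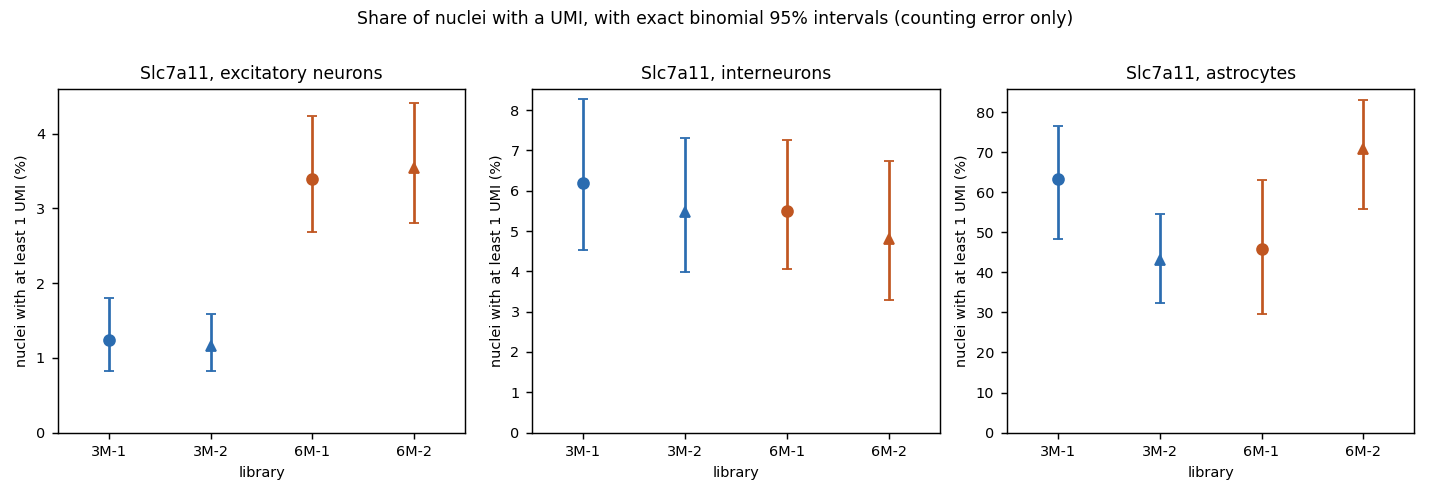
Percent of nuclei with at least 1 UMI of Slc7a11 (y axis) in each library (x axis) for excitatory neurons, interneurons and astrocytes, with exact binomial 95% intervals that cover counting error only. The 6-month excitatory shares of 3.40% and 3.55% lie above the 3-month ones of 1.24% and 1.16%, while the interneuron and astrocyte shares overlap between the ages.

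For Gclc the difference between the ages was -0.14 ± 0.18 in excitatory neurons and -0.42 ± 0.23 in microglia (adjusted p = 0.932 and 0.783 in edgeR). Both 6-month mice lay below both 3-month mice in microglia. In excitatory neurons the value turned to 0.077 without 3M-1. Gclc in astrocytes had too few UMIs for the fit.

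Gss was set apart by 3M-1. It was at 14.0, 23.4, 30.6 and 22.5 CPM in excitatory neurons, a difference between the ages of 0.50 ± 0.25 (adjusted p = 0.885 in edgeR), and the interneuron difference was 0.41 ± 0.28 (0.953). With 3M-1 as the sole 3-month mouse the excitatory difference was 0.86 and the interneuron difference 0.99, whereas without 3M-1 the interneuron difference was -0.025. Only sizes are given for these fits, which left a lone mouse at 3 months. Acss2, which overlaps Gss, was also lowest in 3M-1, at 46.1, 47.4, 56.5 and 50.9 CPM in excitatory neurons and at 83.6, 99.4, 101 and 99.8 CPM in interneurons, and its part in the Gss values was not tested. In oligodendrocytes Gss was at 45.5, 49.5, 41.3 and 36.9 CPM, where 3M-1 was not the lowest.

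Oplah in microglia was at 15.9 and 11.3 CPM at 3 months and at 6.60 and 6.09 CPM at 6 months, from 18, 8, 10 and 8 UMIs, without overlap between the ages. The difference was -1.14 ± 0.47, with an unadjusted p of 0.0352 and an adjusted p of 0.671 in edgeR. Slc1a1 differed between the ages by 0.04 ± 0.15 in excitatory neurons and 0.02 ± 0.12 in interneurons (adjusted p = 0.979 and 0.993 in edgeR). In OPCs, its highest class, the difference was -0.41 ± 0.24 (adjusted p = 0.966 in edgeR). The excitatory value pools the layers. Layer 2/3 held 316, 479, 168 and 140 of the 2170, 3278, 2208 and 2170 excitatory nuclei, a smaller share at 6 months. Mean Slc1a1 was 95.4 (standard deviation 1.27) then 88.7 CPM (18.1) in layer 2/3. In layer 6 it was 118.6 (6.51) then 124.0 CPM (2.44). The part of this layer mix in the pooled differences was not tested, for Slc1a1 or any other member.

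Beyond the 8 members, 63 other genes of glutathione and sulfur amino acid metabolism were listed in 8 groups, and 56 passed the filter on low counts in the comparison of classes. None was called between the ages in any class with edgeR, where the lowest adjusted p was 0.389, in microglia. Against the mean of the other classes, astrocytes had 22 of the 56 higher and 8 lower, with a median difference of 0.40 beside -0.21 over all genes. That is 53.6% of the list beside 31.5% of all genes called. Excitatory neurons had 14 higher and 25 lower (median -0.17 beside 0.01), or 69.6% beside 65.1% of all genes, and microglia 22 and 16, or 67.9% beside 63.2%. Interneurons had 19 and 18 (66.1% beside 58.9%), oligodendrocytes 18 and 21 (69.6% beside 58.2%) and OPCs 10 and 10 (35.7% beside 28.2%). The list was chosen with earlier results of these data known and holds astrocyte genes such as Slc1a2 and Slc1a3, so these shares describe the list only.

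The transsulfuration enzymes, which make cysteine from homocysteine, were highest in astrocytes among the 6 classes. Cbs was at 186, 111, 112 and 96.3 CPM in astrocytes and at most 7.12 CPM in any other class, a difference of 5.80 ± 0.28 (adjusted p = 3.53e-17 in edgeR). Cth was at 24.4, 38.6, 16.0 and 17.0 CPM there and at most 1.06 CPM elsewhere, a difference of 7.02 ± 0.71. The Cth values rested on few UMIs, from astrocyte sums of 125000 to 207323 UMIs. The glutamate transporters Slc1a2 and Slc1a3 (5.46 ± 0.10 and 5.24 ± 0.13), both standard astrocyte genes, and glutamine synthetase, Glul (4.19 ± 0.13), were also highest in astrocytes. Mpst, which handles sulfur from cysteine, was higher there by 1.93 ± 0.70 (adjusted p = 0.0342 in edgeR). Its astrocyte values were 0, 14.5, 16.0 and 11.3 CPM, from few UMIs and with none in 3M-1. Idh1, a source of NADPH, was higher in astrocytes by 2.31 ± 0.28.

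Other steps lay in other cells. Cdo1, which oxidises cysteine towards taurine, was at 127, 104, 107 and 129 CPM in OPCs, higher by 4.65 ± 0.19 (adjusted p = 8.44e-19 in edgeR). Csad, the next step to taurine, was highest in microglia at 229, 182, 142 and 161 CPM (1.47 ± 0.08). Among the 6 classes, Ggt5, which cleaves glutathione conjugates, was found almost only in microglia, at 45.0, 33.8, 13.9 and 18.3 CPM (7.40 ± 0.44). It was at most 1.39 CPM in any other of the 6, and was not looked at in the smaller classes. The microglial sums held border macrophage markers at 187 to 325 CPM, and the part of such RNA was not tested. Microglia were also higher in Mtr (1.95 ± 0.12), Pgd (2.36 ± 0.17) and Slc25a11 (1.06 ± 0.14) and lower in Me1 (-2.25 ± 0.25).

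Serine synthesis, which leads to glycine, was low in excitatory neurons, with Phgdh at 0.840 to 2.03 CPM (-3.49 ± 0.20) and Psat1 at 1.72 to 3.53 CPM (-3.29 ± 0.15). The aminopeptidase Lap3 (-3.17 ± 0.19) and the transporter Slc1a5 (-3.55 ± 0.48) were low there too. Oligodendrocytes were higher in Ggct (1.98 ± 0.28) and Glo1 (0.79 ± 0.15) and lower in Abcc4 (-2.11 ± 0.21) and Glrx (-1.86 ± 0.33). Astrocytes differed further in Abcc1 (-0.87 ± 0.28) and Glrx2 (0.94 ± 0.30), the latter at 176 CPM in 6M-1 and 22.7 to 62.7 CPM in the other mice. In DAM-gated against other microglia, Slc3a2, the heavy chain of xCT, was higher by 0.64 ± 0.16 (adjusted p = 0.0237 in edgeR) and Glul lower by 0.50 ± 0.14 (adjusted p = 0.0431). These 2 of 39 list genes tested are 5.13%, beside 6.4% of all genes called in that comparison.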

How the data were processed

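The authors aligned the reads with Cell Ranger 7.0.0 (file header) to mm10 and deposited filtered matrices of whole-number UMI counts per gene and nucleus, with 500 or more UMIs in each of 30784 nuclei; intron and strand settings were not given in the sources used here. The submitters' processing notes also name Seurat. No deposited cell type annotation was used, so classes were rebuilt by marker gating. Nuclei with over 7000 genes or over 1% mitochondrial UMIs were left out, and doublets were treated only through the gate, with an alternative without the deepest 5% of nuclei.

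Sums of UMIs for each class of each mouse were tested with edgeR 4.0.16 (R 4.3.3, TMM scaling, filterByExpr, quasi-likelihood F-test) and, as an alternative, DESeq2 1.42.0. The age fit used 2 mice per age and no block. The contrasts of classes used the mouse as a block. The age by cell type test was an F-test over the interaction. Fold differences are log2, with a prior count of 2 for correlations. Shares have exact (Clopper-Pearson) 95% intervals, which cover counting error only. The labels give batch numbers 1 and 2 at both ages, equal to the replicate numbers, and do not state that mice with the same number were paired. The correlation of same-numbered deviations was -0.133 in excitatory neurons, -0.0635 in interneurons, -0.113 in oligodendrocytes, -0.000575 in OPCs, -0.0317 in astrocytes and -0.0486 in microglia. Separate mice are replicates here. The fits were tested on simulated data.

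The named genes were the 8 members, pathway genes called between the ages, up to 3 pathway genes per group with the largest called difference between cell types, and the 3 genes most correlated with each member. The members and lists were chosen with earlier results of these data known. Gene coordinates are from GENCODE M21, where 32235 of 32285 gene IDs matched. Alternatives were scaling by library size, DESeq2, no filter on low counts, each mouse left out, stricter (4 markers, 3 times the next list) and looser gates, no nucleus filter, no deepest nuclei, and the block added or removed.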

Additional observations from a re-analysis of the deposited data

Results flagged for a closer look

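Slc1a3, the glutamate transporter GLAST, was the only one of the 56 other pathway genes called in the age by cell type test (adjusted p = 0.0373, edgeR F-test over the interaction). In that test 0.4% of 14490 genes were called, and no member was. Slc1a3 was not called between the ages within any class, and its call under the other settings is not given here. In microglia it was at 314 and 190 CPM at 3 months and at 437 and 418 CPM at 6 months, a difference of 0.72 with an adjusted p of 0.54 within microglia. In interneurons it was at 16.2 and 11.6 CPM at 3 months and at 8.41 and 7.09 CPM at 6 months, a difference of -0.83 (adjusted p = 0.953 in edgeR). Astrocytes, where it is most abundant, were at 2601, 2127, 1984 and 2250 CPM. The part of astrocyte RNA in these values was not tested.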

How the results depend on the processing

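Of 600 alternative values for the 51 called member values between cell types, layers and interneuron groups, 527 kept their call, 72 lost it and 1 reversed (Gclc in excitatory neurons, -0.036 with library size only). For 33 of the 51, every setting that gave a value kept the call. The causes of the changes were not tested, and the share of all genes that kept their call is not given here. With astrocytes at 37 to 81 nuclei per mouse, low members there rest on few UMIs.

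Genes called between the ages depended most on the settings. In excitatory neurons (main 0) they were 33 with DESeq2, 2 with no filter, 2 with the stricter gate, 8 with the replicate block and 1 to 1905 without 1 mouse. In interneurons (0) they were 2 with DESeq2, 30 with no filter and 0 to 1122 without 1 mouse. In oligodendrocytes (3) they were 5 with library size, 28 with DESeq2, 165 with no filter, 6 and 1 with the stricter and looser gates, 18 with the block and 15 to 1042 without 1 mouse. In OPCs (0) they were 13 with no filter, 3 without the deepest nuclei, 1 with the block and 2 to 70 without 1 mouse. In astrocytes (11) they were 36 with no filter, 0 with library size, DESeq2, either gate, the block or without the deepest nuclei, and 2 to 65 without 1 mouse. In microglia (2) they were 12 with DESeq2, 113 with no filter, 29 and 1 with the stricter and looser gates, 27 without the deepest nuclei, 5 with the block and 16 to 967 without 1 mouse. Summed over layer and interneuron groups (1) they were 34, 339, 12, 2 and 93 with DESeq2, no filter, the stricter gate, the looser gate and the replicate block, and 78 to 2289 without 1 mouse. The highest counts came without 3M-2. Each fit without 1 mouse left a lone mouse at 1 age, so its count does not compare the mice. The replicate block changed no member call. A crossed pairing, added after seeing the data, gave 141, 13, 124, 38, 73 and 178 calls in excitatory neurons, interneurons, oligodendrocytes, astrocytes, microglia and the summed groups, and 1 member value.

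Between groups, the stricter gate gave 1817 calls in layer 2/3, 1303 in layer 5, 834 in near-projecting, 2256 in Pvalb, 1071 in Sst and 1486 in Vip neurons, and no mouse block gave 2351, 1037 and 1522 in layers 2/3, 5 and 6. DAM-gated microglia had 227 with DESeq2, 184 with no mouse block and 310 to 511 without 1 mouse. The age by cell type test gave 140 with DESeq2, 142 with the stricter gate and 20 to 88 without 1 mouse. Between the ages, 1 member value was called in the layer and interneuron groups with no filter. Some fits without 1 mouse also called member values, but each left a lone mouse at 1 age, so these are not counted here. Layer calls of members were 6 with the stricter gate, 4 with no mouse block and 5 to 8 without 1 mouse. With no filter 1 member was called in DAM-gated microglia, and with the stricter gate 1 was called by age and cell type. The shares of all genes called under these settings are not given beside the member counts, which therefore describe the settings only. Without 1 mouse, Gclc between the ages was -0.34 to 0.077 in excitatory neurons, -0.29 to 0.093 in oligodendrocytes (both reversed without 3M-1) and -0.30 to 0.14 in OPCs (reversed without 6M-1), and Gss in interneurons -0.025 to 0.99 (reversed without 3M-1). The stricter gate left too few OPCs and layer 6b neurons for a value.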
